A study of Mus musculus with 47 samples.

Results

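The amino acid stress response that the transcription factor ATF4 directs was followed through 10 genes in cultured mouse microglia, the resident macrophages of the brain. These were Atf4, Atf5, Ddit3, Trib3, Chac1, Sesn2, Ddit4, Asns, Psat1 and Phgdh, taken by symbol from 53697 genes with a row in the expression table. All 10 passed the filter on low values, among 10887 genes tested. The cells came from forebrain and were cultured in serum-containing medium, and polyadenylated RNA was sequenced from 47 libraries. The study asked how human APOE4 differs from human APOE3, and how loss of Apoe acts, at rest and after myelin, the lipid-rich sheath of axons that microglia take up.

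All mice were C57BL/6. E4 cells carry human APOE4 and E3 cells human APOE3 in place of both mouse Apoe alleles, and both lines came from Taconic. KO cells have no intact mouse Apoe allele and Het cells have 1, and both came from a Jackson Laboratory line with disrupted Apoe. WT cells came from a separate Jackson Laboratory colony, so genotype and colony cannot be told apart in any comparison with WT. Myelin was given for 3 h and cells were collected at 24 h, while untreated cultures were collected at 24 h. There were 5 libraries each for E4 with myelin, E4 untreated, KO with myelin, KO untreated, WT with myelin and WT untreated, 4 each for E3 with myelin and E3 untreated, 4 for Het with myelin and 5 for Het untreated. Separate animals or cultures are not named for the replicates, and the p-values therefore cover the spread among these libraries only, which can be technical in origin.

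When amino acids run short or unfolded proteins accumulate, kinases phosphorylate the initiation factor eIF2, most translation slows, and the ATF4 message is translated more. ATF4 then switches on genes that make, import and load amino acids, together with factors that limit the response. Since ATF4 is set largely at translation, its mRNA level does not report its protein.

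ATF4 binds DNA with C/EBP partners at a composite element whose core is TGATGNAA. RefSeq promoter windows, from 250 bases before to 50 bases after the start in GRCm38.p6, matched 10 of 10 genes in 12 windows. The core, searched on both strands, lay in 3 of the 12 windows, against 1304 of 32851 windows of this length (3.97%), and overlaps with other motifs were not examined. The 10 genes were chosen as members of the ATF4 response, so this count is no test of it. The 3 genes were Asns, Chac1 and Trib3, and 150 bases around each match are shown. These genes also had the largest fold changes of the 10 in the response of E4 cells to myelin. A link between match and response was not tested. Capitals mark the match, and sequences read along the strand of the gene. In Asns, at chr6:7693210-7693359 on the minus strand, the match began 23 bases before the start. In Chac1, at chr2:119350992-119351141 on the plus strand, it began 193 bases before the start and lay on the opposite strand, and in Trib3, at chr2:152344031-152344180 on the minus strand, it began 14 bases past the start, also on the opposite strand. These distances are from RefSeq starts, which differ from the gene positions given below. By those positions the Asns match lies inside the gene and the Trib3 match upstream of it.
Asns: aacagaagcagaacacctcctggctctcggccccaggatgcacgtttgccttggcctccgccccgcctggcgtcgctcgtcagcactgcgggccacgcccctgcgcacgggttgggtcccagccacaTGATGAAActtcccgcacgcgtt
Chac1: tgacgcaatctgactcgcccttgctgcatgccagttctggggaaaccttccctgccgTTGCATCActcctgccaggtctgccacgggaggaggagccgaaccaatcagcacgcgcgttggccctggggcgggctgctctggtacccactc
Trib3: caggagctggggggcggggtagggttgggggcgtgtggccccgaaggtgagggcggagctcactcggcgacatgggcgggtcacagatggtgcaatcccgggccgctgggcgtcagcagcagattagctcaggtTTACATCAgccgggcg
A match in these letters is a description and not a bound site, and no match in the other windows says only that the letters are absent from them.

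Levels are given as scaled TPM, the deposited TPM (a length-corrected share of transcripts) rescaled to the nuclear protein-coding genes of each library, and read depth is unknown. Coding genes held 0.468 to 27.3% of the deposited TPM, and 4 Het libraries (untreated 3 and 5, myelin 1 and 2) were under 6%. Values assigned to the mouse Apoe gene were 66.3 to 86.4 scaled TPM in KO, 87.9 to 244 in E3 and 138 to 754 in E4 libraries. They were 7920 to 62800 in Het libraries and 46200 to 87600 in WT libraries. The source of the signal in KO, E3 and E4 libraries was not tested. The 9 microglial markers were detected in every group and summed to 1730 to 10000 scaled TPM across libraries, lowest in untreated Het replicate 5. Markers of other cells moved with genotype. The 10 astrocyte markers summed to 1410 to 3140 in E4, 893 to 1180 in E3, 59.2 to 123 in KO, 20.2 to 73.1 in Het and 131 to 164 in WT libraries. The 7 fibroblast and pericyte markers summed to 109 to 193 in E4, 192 to 525 in E3, 31.8 to 656 in KO, 14.0 to 80.0 in Het and 713 to 1190 in WT libraries. Within a bulk sample, fewer cells of a type and less RNA per cell cannot be told apart.

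In E4 microglia, 5 of the 10 genes were called higher with myelin and none was called lower. The genes were Trib3, Asns, Chac1, Psat1 and Ddit3, which encode a feedback pseudokinase, the asparagine synthetase, a glutathione-degrading enzyme, an enzyme of serine synthesis and the transcription factor CHOP. Atf4 itself was not called. By limma with Benjamini-Hochberg adjustment at 0.05, 14.4% of the 10887 genes were called in this comparison, 9.62% higher and 4.79% lower. The median log2 fold change was 0.19 over the 10 genes and 0.02 over all genes.

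Asns makes asparagine from aspartate and glutamine, and lies on chromosome 6 from 7675169 to 7693254 in mm10 (ENSMUSG00000029752.12). It had 74.0, 67.0, 68.5, 63.2 and 61.2 scaled TPM in E4 libraries with myelin, against 42.9, 34.7, 39.4, 37.2 and 32.5 scaled TPM in untreated E4 libraries. Every library with myelin lay above every untreated one. The log2 fold change was 0.83 ± 0.08 (SE), a 1.77-fold difference on the log2(scaled TPM + 1) scale (limma, adjusted p = 5.64e-09). Trib3, a pseudokinase that binds ATF4 and dampens it, lies on chromosome 2 from 152337422 to 152344032 (ENSMUSG00000032715.9). It had 11.1, 14.4, 12.2, 10.1 and 10.4 scaled TPM with myelin, against 5.94, 5.01, 6.20, 4.74 and 5.55 scaled TPM untreated. The groups did not overlap, and the log2 fold change was 0.96 ± 0.14 (limma, adjusted p = 7.78e-06).

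Chac1 breaks down glutathione, and lies on chromosome 2 from 119351229 to 119354381 (ENSMUSG00000027313.3). It had 6.11, 6.88, 5.34, 5.34 and 7.13 scaled TPM in E4 libraries with myelin, against 3.06, 2.98, 3.85, 2.51 and 3.28 scaled TPM in untreated E4 libraries. All 5 libraries with myelin lay above all untreated ones, with a log2 fold change of 0.79 ± 0.11 (limma, adjusted p = 7.78e-06). Chac1 is a low gene, and with a pseudocount of 5 in place of 1 the same difference read 0.45. Psat1, which carries out the middle step of serine synthesis, lies on chromosome 19 from 15904678 to 15947337 (ENSMUSG00000024640.9). It had 76.7, 73.0, 82.6, 78.4 and 77.3 scaled TPM with myelin, against 54.5, 59.1, 58.2, 61.5 and 53.1 scaled TPM untreated. Its groups were also apart, at 0.43 ± 0.08 (limma, adjusted p = 0.000228).

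Ddit3, the stress factor CHOP (chromosome 10 from 127290774 to 127296288), had 93.6, 112, 106, 82.3 and 106 scaled TPM in E4 libraries with myelin, against 90.5, 81.7, 83.3, 65.7 and 73.0 scaled TPM in untreated E4 libraries. The groups overlapped. Its log2 fold change of 0.34 ± 0.11 passed narrowly (limma, adjusted p = 0.0267) and was lost in 5 of 10 fits that left out 1 library (E4 myelin replicate 2, 3 or 5, or E4 untreated replicate 4 or 5), with adjusted p up to 0.0739. It was also lost with no filter and when the E4 groups were fitted alone. A fit of all 47 libraries, which takes in the spread of the Het libraries, called Asns, Chac1 and Trib3 and lost Psat1 and Ddit3.

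**Figure D1:**
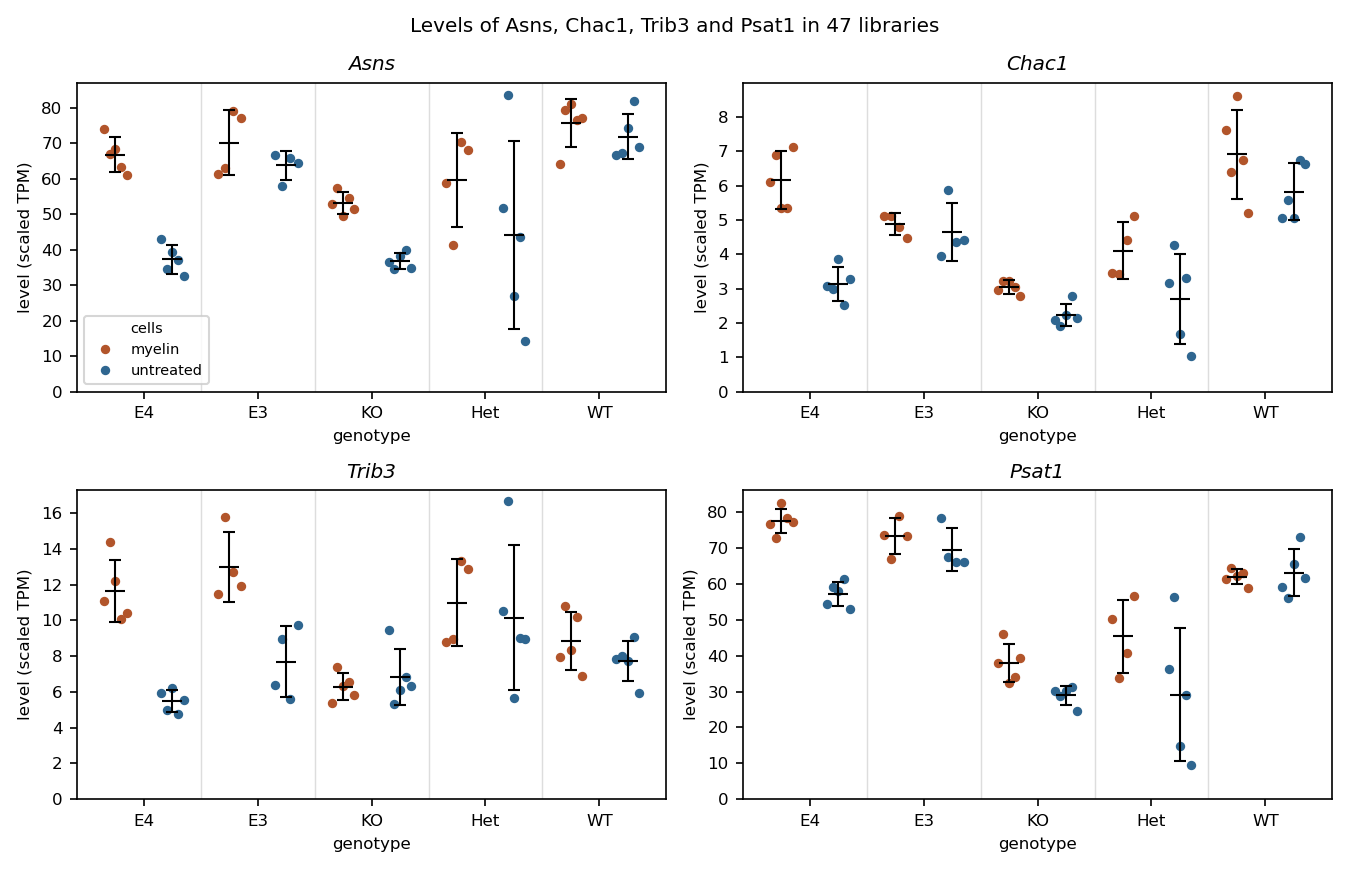
Levels of Asns, Chac1, Trib3 and Psat1 (vertical axis, scaled TPM) in 47 libraries by genotype, with myelin on the left and untreated on the right of each genotype. Points are libraries and bars the mean ± SD; in E4 all 5 libraries with myelin lie above all 5 untreated libraries for each of these genes, and the Het untreated libraries spread widely (Asns 14.4 to 83.7).

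The other 5 genes, among them the regulators Atf4 and Atf5 and the mTORC1 brakes Sesn2 and Ddit4, were not called in E4. Atf4 (chromosome 15 from 80255184 to 80257541) averaged 99.7 ± 9.18 scaled TPM with myelin and 96.7 ± 6.47 scaled TPM untreated (SD, n = 5 each), a log2 fold change of 0.04 with a 95% interval of -0.10 to 0.19. Atf5, a related factor, gave -0.15 ± 0.19 and Sesn2, a leucine sensor that restrains mTORC1, -0.01 ± 0.09. Ddit4, another inhibitor of mTORC1 (chromosome 10 from 59949669 to 59951834), gave -0.19 ± 0.13. Phgdh, which opens the serine pathway ahead of Psat1 (chromosome 3 from 98313170 to 98339990), averaged 144 ± 8.50 scaled TPM with myelin and 153 ± 18.8 scaled TPM untreated, and its log2 fold change was -0.09 ± 0.13. The adjusted p of these genes ran from 0.340 to 0.952 (limma). A value that misses the threshold does not show that a gene stayed the same, and the intervals reach 0.52 lower for Atf5 and 0.45 lower for Ddit4.

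Other genes of the pathway were counted in the same fit. Of 18 aminoacyl-tRNA synthetases, which load amino acids onto tRNA, 9 rose and none fell in E4 with myelin, with a median of 0.19. Aars, for alanine, rose by 0.46 ± 0.08 and Gars, for glycine, by 0.58 ± 0.20 (limma, adjusted p = 0.000164 and 0.0435). Of 11 tested enzymes of serine, one-carbon, proline and other amino acids, 3 rose and none fell. They were the mitochondrial folate enzyme Mthfd2 at 0.67 ± 0.08, the proline-pathway enzyme Aldh18a1 at 0.69 ± 0.11 and Pck2 at 0.39 ± 0.08 (limma, adjusted p = 4.3e-07, 5.55e-05 and 0.00116).

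Not every known ATF4 target moved that way. Of 8 amino acid transporters tested, 2 rose and 1 fell in E4. Slc7a5, the large neutral amino acid carrier, rose by 1.11 ± 0.29 and the arginine carrier Slc7a1 by 0.33 ± 0.12, while the cystine carrier Slc7a11 fell by 0.68 on the log2 scale (limma, adjusted p = 0.00806, 0.0464 and 0.000474). Of 11 other targets and partners, Cebpg, a C/EBP partner of ATF4, rose by 0.66 ± 0.18 and the cell cycle inhibitor Cdkn1a fell by 0.52 on the log2 scale (limma, adjusted p = 0.012 and 7.54e-05). Of 13 eIF2 kinases and initiation factors, only Eif2ak4, the kinase GCN2 that senses uncharged tRNA, was called, at 0.30 ± 0.10 (limma, adjusted p = 0.0456).

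Several measures of the libraries were set beside the E4 response. Coding genes held 16.0 to 24.3% of TPM in E4 libraries with myelin and 7.16 to 16.1% in untreated E4 libraries, and the part of this difference in the result was not tested. Of 10 astrocyte markers 0 were called, and of 5 tested fibroblast and pericyte markers 0 were called, with summed levels of 113 to 141 with myelin and 109 to 193 untreated. Of 9 microglial markers 1 was higher and 4 were lower, and 2 of 3 endothelial, 1 of 2 neuronal, 1 of 2 border macrophage and 0 of 4 oligodendrocyte markers were lower. Without the trimmed-mean factor the calls over all genes split into 747 higher and 735 lower, in place of 1047 and 521, and the 5 members kept their calls.

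The same challenge gave fewer calls in the other genotypes. In E3, 1 of 10 genes rose, in KO 2 rose, and in WT and Het limma called 0, where 1 and 4 of the genes had an unadjusted p under 0.05. No member fell in any genotype. Of all genes, 4.79% were called higher and 3.02% lower in E3 (7.82% in all), 1.61% and 1.73% in KO (3.33%), 6.14% and 0.496% in WT (6.63%), and 0.0735% and 0.0459% in Het (0.119%). The members' medians were 0.04, -0.03, 0.12 and 0.28 in E3, KO, WT and Het, beside 0.01, 0.02, 0.00 and 0.09 over all genes.

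Trib3 was the gene called in E3, with 11.5, 15.8, 12.7 and 11.9 scaled TPM in E3 libraries with myelin, against 6.41, 8.97, 5.61 and 9.75 scaled TPM in untreated E3 libraries. The groups did not overlap, and the log2 fold change was 0.71 ± 0.15 (limma, adjusted p = 0.00557), lost in the fit of all 47 libraries. Asns in E3 had 61.5, 63.0, 79.1 and 77.1 scaled TPM with myelin, against 66.7, 58.0, 66.0 and 64.4 scaled TPM untreated. These groups overlapped, with a log2 fold change of 0.13 ± 0.09 (limma, adjusted p = 0.362). Chac1 and Psat1 gave 0.07 ± 0.13 and 0.08 ± 0.09, and Ddit3 0.26 ± 0.12 (limma, adjusted p = 0.157 for Ddit3). Markers were set beside this response too. Fibroblast and pericyte markers summed to 192 to 335 scaled TPM in E3 with myelin and 354 to 525 scaled TPM in untreated E3, without overlap, though 0 of 5 tested were called. Of 3 endothelial markers 1 was lower, of 4 oligodendrocyte markers 1 was higher, and of 9 microglial markers 1 was higher and 1 lower. The part of these markers in the E3 response was not tested. In the pathway lists, 1 of 11 amino acid enzymes rose in E3 (Mthfd2 at 0.31 ± 0.09) and 1 fell (Bcat1, by 0.67 on the log2 scale). Of 11 other targets 1 rose, Cebpg at 0.92 ± 0.20, and 2 fell, Cdkn1a by 0.30 and Eif4ebp1 by 0.42, and of 18 tRNA synthetases 1 fell, Qars by 0.29. The 8 transporters and 13 initiation genes gave 0 calls. Without the trimmed-mean factor the calls over all genes in E3 split into 341 higher and 377 lower, in place of 522 and 329.

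In KO cells the genes called were the synthesis enzymes Asns and Psat1. Asns had 52.8, 57.4, 49.6, 54.6 and 51.4 scaled TPM in KO libraries with myelin, against 36.5, 34.6, 38.2, 40.0 and 34.8 scaled TPM in untreated KO libraries. Psat1 had 37.9, 46.0, 32.4, 34.0 and 39.4 scaled TPM with myelin, against 30.2, 28.8, 30.1, 31.2 and 24.5 scaled TPM untreated. Neither gene overlapped between the groups, and the log2 fold changes were 0.52 ± 0.08 for Asns and 0.37 ± 0.08 for Psat1 (limma, adjusted p = 0.000166 and 0.0037). Both were lost in the fit of all 47 libraries, and Psat1 also without the 4 low Het libraries and when the KO groups were fitted alone. Trib3 in KO gave -0.09 ± 0.14 and Chac1 0.33 ± 0.11 (limma, adjusted p = 0.82 and 0.106). Of 10 astrocyte markers 3 were lower in KO with myelin, and their sums of 59.2 to 70.7 scaled TPM with myelin and 85.1 to 123 scaled TPM untreated did not overlap. Lower calls were also made for 2 of 2 neuronal and 1 of 4 oligodendrocyte markers, and higher calls for 1 of 2 border macrophage and 1 of 9 microglial markers. The part of these markers in the KO response was not tested. In the pathway lists, 1 of 11 amino acid enzymes rose in KO (Mthfd2 at 0.34 ± 0.08), 1 of 8 transporters fell (Slc7a11, by 0.68 on the log2 scale) and 1 of 11 other targets fell (Ppp1r15a, by 0.36). Of 18 tRNA synthetases and 13 initiation genes, 0 were called.

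In WT cells Asns was high in both states, with 64.2, 79.4, 81.2, 76.7 and 77.1 scaled TPM in WT libraries with myelin, against 66.6, 67.4, 74.4, 82.0 and 69.1 scaled TPM in untreated WT libraries. The groups overlapped and the log2 fold change was 0.07, with a 95% interval of -0.09 to 0.24. Trib3 gave 0.17 ± 0.14, Chac1 0.21 ± 0.11, Psat1 -0.02 ± 0.08 and Ddit3 0.23 ± 0.11, with no adjusted p below 0.225 (limma). Of the markers, 1 of 10 astrocyte and 1 of 3 endothelial ones were higher in WT with myelin, and 2 of 2 border macrophage ones were lower, with sums of 503 to 682 scaled TPM with myelin and 702 to 1020 scaled TPM untreated. Other pathway genes did pass in WT. Of 8 transporters 2 rose, Slc7a5 at 0.92 ± 0.29 and Slc1a5 at 0.73 ± 0.21, and of 18 tRNA synthetases 1 rose, Gars at 0.96 ± 0.20. Of 11 other targets 3 rose, Cebpg at 0.90 ± 0.18, Gdf15 at 0.53 ± 0.14 and Vegfa at 1.27 ± 0.29, and Atf3, named after its value was seen, fell by 0.27 on the log2 scale. Of 13 initiation genes Eif2b5 rose at 0.81 ± 0.15, and of 11 amino acid enzymes 0 were called. Over all genes limma called 722 in WT here and 0 when the WT groups were fitted alone, where 1682 had an unadjusted p under 0.05.

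In Het cells no member was called. Psat1 had 50.3, 33.9, 40.7 and 56.6 scaled TPM in Het libraries with myelin, against 36.3, 56.4, 14.7, 29.0 and 9.44 scaled TPM in untreated Het libraries, the last from the library with 0.468% coding content. The groups overlapped, and its log2 fold change was 0.84 ± 0.23 (limma, adjusted p = 0.0997), with 0 of 10 members called. Asns and Chac1 gave 0.62 ± 0.23 and 0.54 ± 0.17 in Het. The pathway lists gave 0 calls in Het. The calls over all genes split into 8 higher and 5 lower, and into 46 and 52 without the trimmed-mean factor. Higher and lower calls were 0 and 14 without the 4 low Het libraries, 13 and 96 with a replicate block, 452 and 1578 with library weights, and 32 and 249 without Het untreated replicate 5, so the direction over all genes turned with the setting. Leaving out untreated replicate 2 changed the calls over all genes from 13 to 554, and the members called ranged from 0 to 3 over the fits that left out 1 library.

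**Figure D2:**
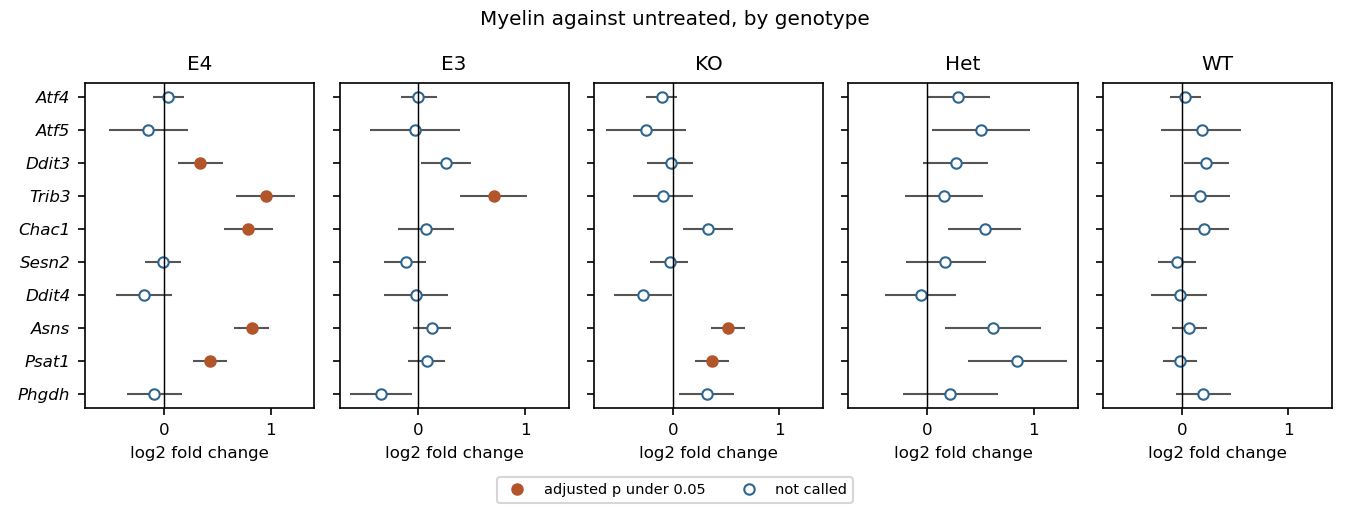
Log2 fold change of the 10 genes with myelin over untreated (horizontal axis, scale of log2(scaled TPM + 1)) in each genotype, with 95% intervals from limma. Filled points passed the adjusted p of 0.05: 5 in E4, 1 in E3, 2 in KO and none in Het or WT.

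Whether these responses differed between genotypes was tested directly, as the myelin response of a genotype minus that of another. For E4 minus E3, Asns alone was called, and it was the 1 gene called of 10887 (0.00919%). Its difference was 0.70 ± 0.12 on the log2 scale (limma, adjusted p = 0.0163). All 5 E4 libraries with myelin lay above the untreated E4 range, and 2 of 4 E3 libraries lay above the untreated E3 range. The call was lost in 7 of 18 fits without 1 library (E3 myelin replicate 1 or 2, E3 untreated 3 or 4, E4 myelin 1, E4 untreated 2 or 5), where the adjusted p reached 0.0988, and without the trimmed-mean factor, without the 4 low Het libraries, with all 47 libraries, and with the E3 and E4 groups fitted alone. The difference itself stayed between 0.64 and 0.76 in all of those fits. Chac1 had a difference of 0.73 ± 0.17 and Psat1 of 0.36 ± 0.12, neither called (limma, adjusted p = 0.263 and 0.604). Trib3 differed by 0.25, with a 95% interval of -0.17 to 0.67, and was not called.

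Against WT the E4 response was larger for 4 of 10 genes, beside 3.44% of all genes higher, 2.16% lower and 5.59% in all. The differences were 0.75 ± 0.11 for Asns, 0.79 ± 0.19 for Trib3, 0.58 ± 0.16 for Chac1 and 0.45 ± 0.11 for Psat1 (limma, adjusted p = 0.000109, 0.0146, 0.0277 and 0.0139). With a pseudocount of 5 the Chac1 difference read 0.32 and was still called. Ddit3 differed by 0.11 ± 0.15 and was not called. Of the pathway lists, Mthfd2, Aldh18a1, Aars, Cars and Eprs also had larger responses in E4, by 0.54, 0.79, 0.41, 0.35 and 0.25, and Cdkn1a had a lower one, at -0.50 ± 0.12 (limma, adjusted p = 0.0131 for Cdkn1a). All 4 member calls were lost in the fit of all 47 libraries, that of Psat1 also without the 4 low Het libraries, and that of Chac1 with the E4 and WT groups fitted alone, with a replicate block, and without E4 myelin replicate 5, E4 untreated replicate 1 or WT untreated replicate 4 or 5. For KO minus WT, 2 of 10 were called higher, beside 1.42% of all genes higher and 2.73% lower (4.15% in all), Asns at 0.44 ± 0.11 and Psat1 at 0.39 ± 0.11 (limma, adjusted p = 0.0249 and 0.0406). Psat1 passed in 1 of 8 alternative fits and in 9 of 20 without 1 library, and Asns passed in 5 of 8 and in all but those without WT myelin replicate 1 or WT untreated replicate 4. The pathway genes called in KO minus WT all went the other way. They were Vegfa at -1.53, Slc1a5 at -1.04, Cebpg at -0.99, Gdf15 at -0.72 and Eif2b5 at -0.72, with 0 called higher in the 5 lists (limma, adjusted p from 0.0264 to 0.0426). Each of these genes was called higher in the WT response, and none was called in the KO response. In WT the groups with and without myelin overlapped for all of them but Eif2b5. For E3 minus WT limma called 0 of 10, beside 2.15% of all genes higher and 1.36% lower (3.51% in all), and 2 had an unadjusted p under 0.05, with 0.54 ± 0.21 for Trib3 and -0.55 ± 0.19 for Phgdh as the ends of the range (limma, adjusted p = 0.115 and 0.0845). Of the pathway lists in E3 minus WT, 1 of 8 transporters was higher, Slc38a2 at 0.75. In the same difference 1 of 18 tRNA synthetases and 1 of 11 other targets were lower. The differences from WT share the WT libraries, and the E4 libraries also serve in E4 minus E3.

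At rest, 5 of the 10 genes were lower in E4 than in E3 cells, and none was higher. They were Asns, Phgdh, Chac1, Atf4 and Psat1. Of all genes, 9.92% were called lower and 8.67% higher (18.6% in all). The members' median was -0.34 against 0.02 over all genes. After myelin only Atf4 was called, where 5.33% of all genes were lower and 7.44% higher (12.8% in all).

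Asns, given above for each library, averaged 37.3 ± 4.06 scaled TPM in untreated E4 and 63.8 ± 3.97 scaled TPM in untreated E3 libraries (SD, n = 5 and 4), a log2 fold change of -0.76 ± 0.09 (limma, adjusted p = 3.53e-08). With myelin it averaged 66.8 ± 4.99 scaled TPM in E4 and 70.2 ± 9.22 scaled TPM in E3, a log2 fold change of -0.06 with a 95% interval of -0.24 to 0.11. The untreated groups lay apart and the groups with myelin overlapped. Atf4 had 104, 101, 93.2, 97.7 and 87.7 scaled TPM in untreated E4, against 130, 130, 132 and 124 scaled TPM in untreated E3 libraries. With myelin Atf4 had 103, 113, 99.7, 92.2 and 90.3 scaled TPM in E4, against 125, 133, 121 and 138 scaled TPM in E3 libraries. In neither state did the genotypes overlap, and the log2 fold changes were -0.41 ± 0.08 untreated and -0.37 ± 0.08 with myelin (limma, adjusted p = 0.000117 and 0.000569). Both were lost in the fit of all 47 libraries.

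Chac1 was lower in untreated E4 by -0.45 ± 0.12 (-0.24 with a pseudocount of 5), Phgdh by -0.44 ± 0.14 and Psat1 by -0.27 ± 0.08 on the log2 scale (limma, adjusted p = 0.00763, 0.0192 and 0.0175), and the groups lay apart for each. Chac1 was lost without E3 untreated replicate 2 and with the groups fitted alone, Psat1 without E3 untreated replicate 1 or E4 untreated replicate 5 and without the 4 low Het libraries, and Phgdh without E3 untreated replicate 1 or 2 or E4 untreated replicate 5. In the fit of all 47 libraries 1 of the 5 stayed called, Asns. Trib3 at -0.40 ± 0.15 and Ddit3 at -0.02 ± 0.11 were not called (limma, adjusted p = 0.0526 and 0.936).

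Other genes of the pathway were counted in untreated cells too. Of 18 tRNA synthetases 6 were lower in untreated E4 and none higher, with Rars, Kars and Cars at -0.38, -0.32 and -0.29. Of 11 amino acid enzymes 5 were lower, among them Bcat1 at -1.17 ± 0.19, Mthfd1l at -0.52 ± 0.12 and Mthfd2 at -0.45 ± 0.09. Of 13 initiation genes 4 were lower, with Eif2s1, the alpha subunit of eIF2 itself, at -0.52 ± 0.12, Eif2b3 at -0.41 and Eif2ak4 at -0.35. Of 8 transporters 1 was lower, Slc7a1 at -0.45. The other targets went both ways, with Ppp1r15a, which recruits the phosphatase that reverses eIF2 phosphorylation, higher at 0.54 ± 0.09, Gdf15 at 0.64 ± 0.15 and Eif4ebp1 lower at -0.71 ± 0.10. After myelin, Ppp1r15a, Gdf15 and Atf3 were higher in E4 than in E3 by 0.67, 0.75 and 0.41, Slc6a9 and Wars by 0.60 and 0.25, Bcat1 and Tars were lower by -0.78 and -0.33, and 0 of 13 initiation genes were called.

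Markers of other cells moved between E4 and E3 as well. Of 10 astrocyte markers 9 were higher in E4 in both states, and of 5 tested fibroblast and pericyte markers 5 were lower untreated and 1 with myelin. Oligodendrocyte markers were higher for 4 of 4 tested untreated and 2 of 4 with myelin, and their sums were 131 to 193 in E4 and 89.5 to 119 in E3 libraries. Microglial markers were higher in E4 for 4 of 9 untreated and 1 of 9 with myelin, and their untreated sums of 6770 to 8070 in E4 and 5220 to 6290 in E3 libraries did not overlap. Endothelial markers were lower for 1 of 3 in each state, and none of 2 neuronal or 2 border macrophage markers was called. Their part in the differences of Asns, Chac1, Psat1, Phgdh and Atf4 was not tested.

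**Figure D3:**
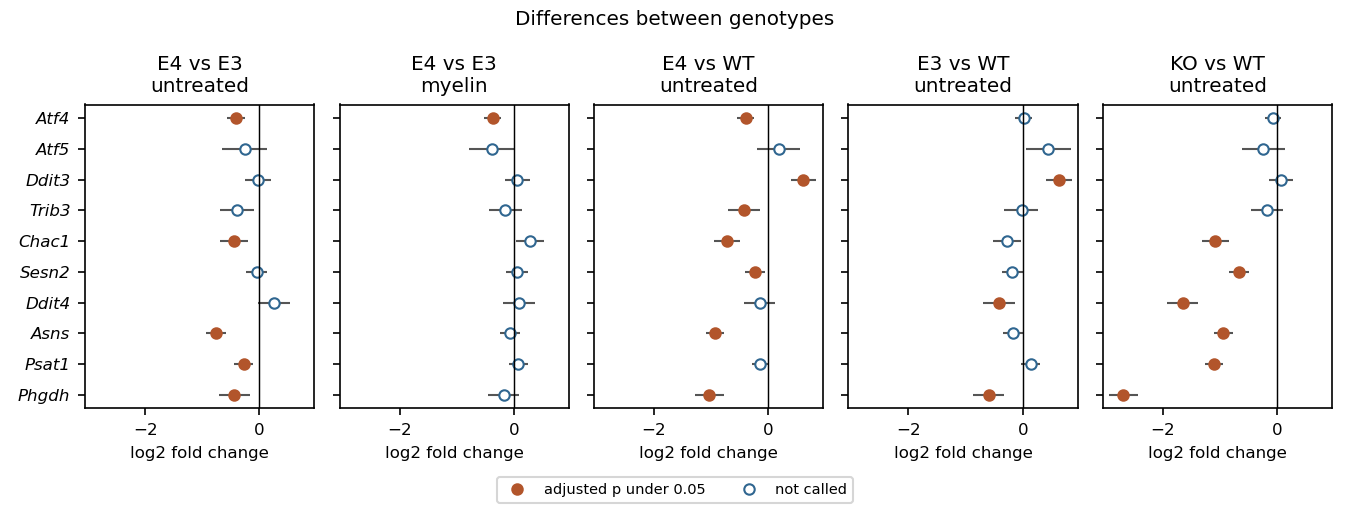
Log2 fold change of the 10 genes between genotypes (horizontal axis, the first-named genotype over the other) with 95% intervals from limma; filled points passed the adjusted p of 0.05. Asns lay at -0.76 for untreated E4 over E3 and at -0.06 with myelin, and Phgdh at -2.69 for untreated KO over WT.

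All lines differed from WT over a majority of genes, so member counts there stand beside a high background. In untreated E4 over WT, 1 of 10 genes was higher and 6 lower, with 28.7% and 35.8% of all genes called in those directions (64.4% in all). In untreated E3 over WT, 1 was higher and 2 lower, with 24.9% and 31.4% of all genes (56.3% in all). In untreated KO over WT, 0 were higher and 6 lower, with 27.1% and 29.9% of all genes (56.9% in all). With myelin, KO over WT had 0 higher and 9 lower, with 28.3% and 27.3% of all genes (55.6% in all). In untreated Het over WT, 2 were higher and 6 lower, with 17.7% and 44.8% of all genes (62.5% in all). The split of calls in this Het comparison was 1926 higher and 4879 lower, but 9279 and 5517 with no filter and 2664 and 3451 without the 4 low Het libraries. The median over all genes was -0.34 in the Het comparison and within 0.05 of 0 in the others. All of these comparisons use the WT libraries.

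Ddit3 was higher in both humanized lines than in WT. It had 90.5, 81.7, 83.3, 65.7 and 73.0 scaled TPM in untreated E4 and 82.2, 92.4, 71.0 and 73.7 scaled TPM in untreated E3, against 53.4, 53.7, 54.0, 44.3 and 49.6 scaled TPM in untreated WT libraries. Neither line overlapped WT, and the log2 fold changes were 0.61 ± 0.11 for E4 and 0.63 ± 0.11 for E3 (limma, adjusted p = 4.92e-06 and 1.32e-05). KO cells had 49.2, 52.2, 49.0, 57.5 and 59.4 scaled TPM untreated and overlapped WT, at 0.07 ± 0.11. The Ddit3 locus shares 68 exonic bases with Mars and 13 with Gm4189 on the opposite strand, and 105 with another annotated Ddit3 identifier that is listed at 0 in every library.

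Asns was called lower in untreated KO, E4 and Het cells than in WT cells. The untreated Het libraries ranged from 14.4 to 83.7 scaled TPM and overlapped the untreated WT libraries, at 66.6 to 82.0. KO averaged 36.8 ± 2.28 scaled TPM and E4 37.3 ± 4.06 scaled TPM, against 71.9 ± 6.41 scaled TPM in WT libraries (SD, n = 5 each). The log2 fold changes were -0.94 ± 0.08 for KO, -0.93 ± 0.08 for E4 and -0.91 ± 0.21 for Het, and -0.17 ± 0.09 for E3, which was not called (limma, adjusted p = 2.04e-12, 3.31e-12, 0.000316 and 0.091). Chac1 followed with -1.08, -0.72 and -0.96 in KO, E4 and Het, and -0.27 in E3, not called (limma, adjusted p = 0.0522). With a pseudocount of 5 these Chac1 differences read -0.58, -0.41 and -0.51 in KO, E4 and Het, and the -0.17 in E3 was called. Psat1 parted from them, at -1.10 ± 0.08 in KO and -1.33 ± 0.22 in Het while E4 at -0.14 ± 0.08 was not called. For Psat1 too the untreated Het libraries overlapped WT, at 9.44 to 56.4 against 56.1 to 73.1 scaled TPM. Sesn2 was lower by -0.67 in KO, -1.09 in Het and -0.24 in E4, the last lost without the trimmed-mean factor, without WT untreated replicate 4 and in both fits of all 47 libraries, and Trib3 was lower in E4 at -0.42 ± 0.14 (-0.27 with a pseudocount of 5). Without the 4 low Het libraries the Het differences were smaller, at -0.31 for Asns, -0.57 for Chac1, -0.67 for Psat1 and -0.65 for Sesn2. Atf4 was lower in E4 at -0.39 ± 0.07, and the other genotypes overlapped WT untreated, with -0.07 in KO, 0.02 in E3 and -0.03 in Het. Atf5 was higher in Het, with 5.05 to 10.9 scaled TPM against 2.66 to 4.79 scaled TPM in untreated WT, a log2 fold change of 0.94 ± 0.22 (limma, adjusted p = 0.000259), and 0.59 with a pseudocount of 5. Ddit3 was higher in Het too, at 0.38 ± 0.14 (limma, adjusted p = 0.0188), lost when the Het and WT groups were fitted alone, which also lost Asns, and without Het untreated replicate 2 or 3 or WT untreated replicate 4. The Atf5 gene shares 82 exonic bases with Nup62 and Il4i1 on the opposite strand, and whether counting used strand is not given in the sources used here.

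With myelin, all members but Ddit3 were lower in KO than in WT. Besides the genes above, Atf4 was lower by -0.20 ± 0.07, Atf5 by -0.68 ± 0.19 and Trib3 by -0.42 ± 0.14 (limma, adjusted p = 0.0155, 0.00216 and 0.00885), and these 3 overlapped between the groups. With a pseudocount of 5 the Atf5 difference read -0.35. Asns in KO with myelin stayed below WT with myelin, at -0.50 ± 0.08 (limma, adjusted p = 2.1e-06). The Atf4 call was lost without KO myelin replicate 3 or WT myelin replicate 2. It was also lost with the groups fitted alone and in both fits of all 47 libraries. The unweighted fit of all 47 libraries also lost Asns and Trib3.

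Phgdh and Ddit4 had the widest spread over genotypes. Phgdh had 51.6, 50.0, 56.9, 41.0 and 40.5 scaled TPM in untreated KO, against 343, 284, 324, 342 and 278 scaled TPM in untreated WT libraries. These ranges were far apart, a log2 fold change of -2.69 ± 0.13 (limma, adjusted p = 6.78e-19). Untreated Het had 24.3 to 88.5 scaled TPM, E4 124 to 174 and E3 175 to 236, with log2 fold changes over WT of -2.45 ± 0.21, -1.03 ± 0.13 and -0.59 ± 0.14 (limma, adjusted p = 2.12e-13, 1.29e-08 and 0.000389). Ddit4 had 1.59, 1.04, 0.847, 1.05 and 1.69 scaled TPM in untreated KO, against 5.93, 5.35, 6.13, 7.54 and 5.15 scaled TPM in untreated WT libraries. It was as low in untreated Het, at 0.298 to 1.69 scaled TPM, while E4 held 4.67 to 5.92 and E3 3.81 to 4.77. The log2 fold changes over WT were -1.65 ± 0.13 in KO, -1.93 ± 0.16 in Het and -0.41 ± 0.14 in E3 (limma, adjusted p = 3.57e-13, 5.67e-14 and 0.0124), and -0.15 ± 0.13 in E4, not called. The E3 difference was lost in the fit of all 47 libraries. With a pseudocount of 5 the Ddit4 differences read -0.82 in KO, -0.91 in Het and -0.25 in E3. Ddit4 passed the filter on low values through WT and E4 libraries only.

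**Figure D4:**
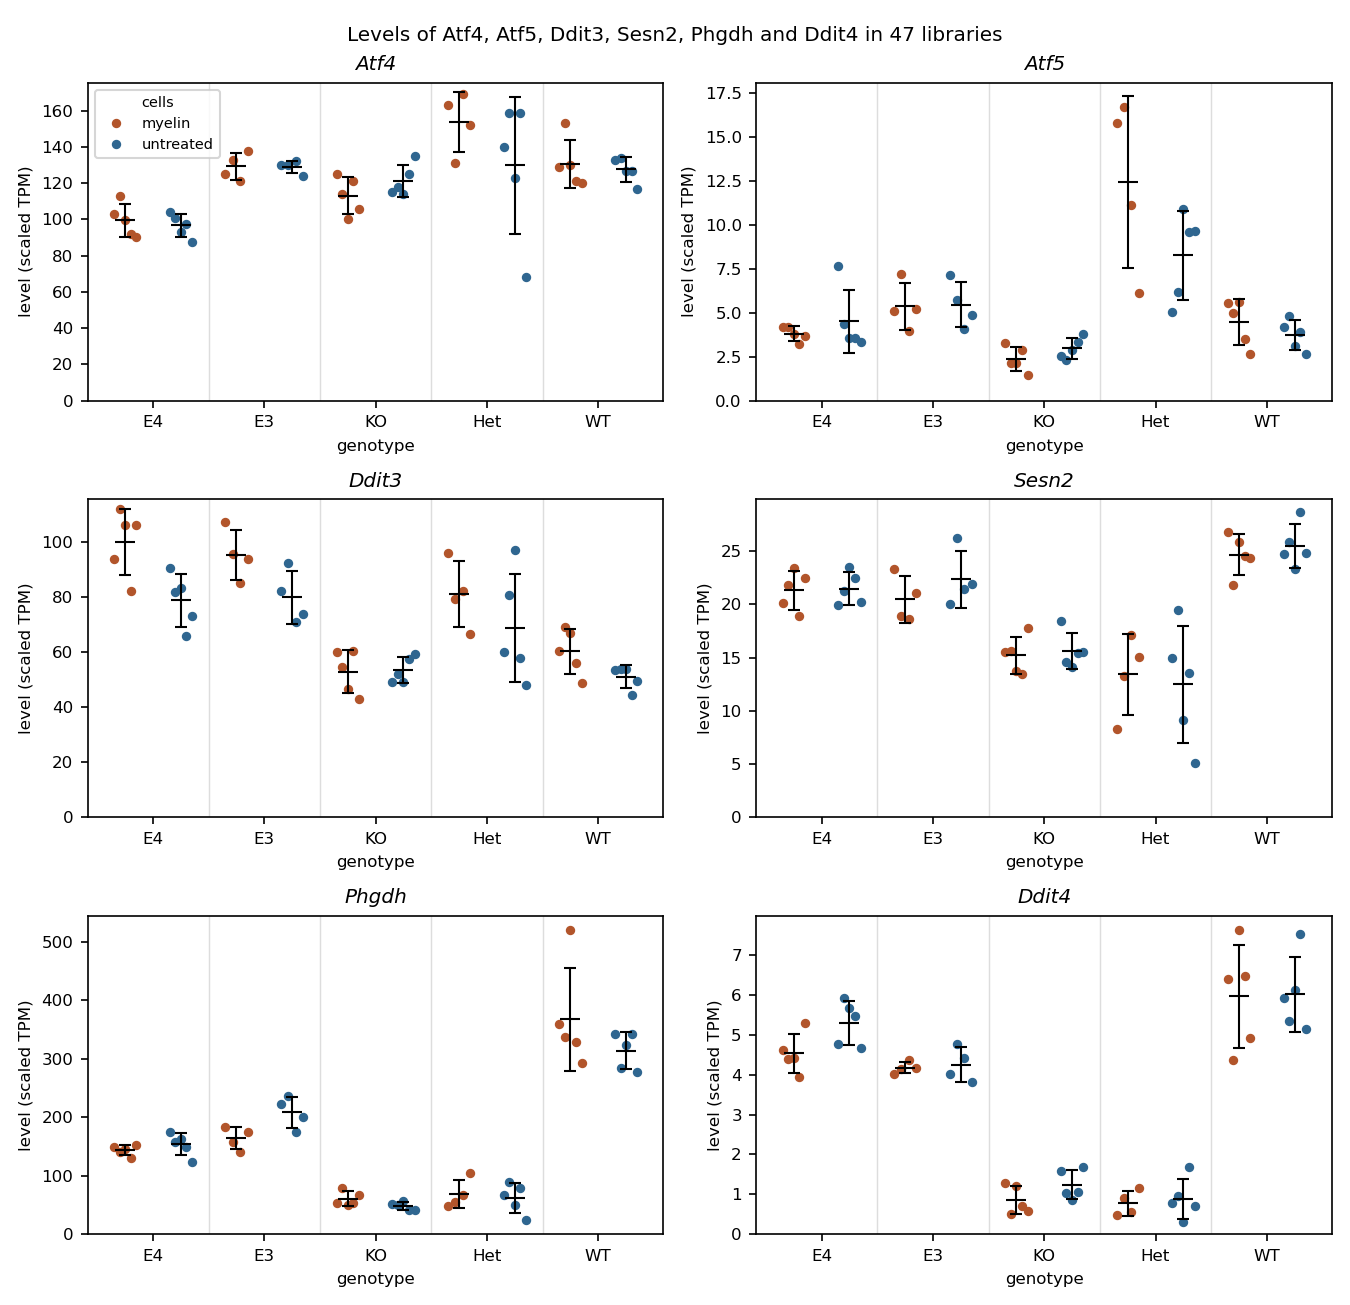
Levels of Atf4, Atf5, Ddit3, Sesn2, Phgdh and Ddit4 (vertical axis, scaled TPM) in 47 libraries by genotype, with myelin on the left and untreated on the right of each genotype; points are libraries and bars the mean ± SD. Phgdh is highest in WT, at 278 to 520, and Ddit4 is at 1.69 or below in every KO and Het library.

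Phgdh and the fibroblast and pericyte markers were ordered alike from WT to E3 to E4, with KO and Het lowest. Their median sums were 479 in untreated E3, 171 in E4, 53.0 in KO and 41.3 in Het libraries, against 892 in untreated WT libraries, and all 5 tested markers were lower than WT in E4, KO and Het and 2 of 5 in E3. Of the 10 astrocyte markers, 9 were higher than WT in untreated E4 and E3. In untreated KO 1 was higher and 3 were lower, and in untreated Het 2 were higher and 7 lower. Phgdh was lower than WT in each of these genotypes. Untreated KO replicate 5 summed to 656 for fibroblast and pericyte markers, where the other 4 untreated KO libraries summed to 31.8 to 71.6. Phgdh in this 1 library was 40.5 scaled TPM. The part of either set of markers in the Phgdh differences was not tested, across genotypes or within KO. Without any 1 library the Phgdh difference between untreated KO and WT stayed between -2.75 and -2.63. Bcat1, an enzyme of branched-chain amino acids, was lower than WT by -1.07 in E3, -2.24 in E4, -3.14 in KO and -3.29 in Het. Of 18 tRNA synthetases 14 were lower than WT in untreated KO, 14 in E4, 10 in E3 and 16 in Het cells, and 1 was higher in each of KO, E4 and E3, in KO Gars at 0.79 ± 0.20. Of 11 amino acid enzymes 7 were lower in KO, 7 in E4, 4 in E3 and 6 in Het cells, with 1 higher in KO and 1 in E4.

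The remaining pathway lists went both ways against WT. Of 11 other targets and partners, 5 were higher and 4 lower in untreated KO, 4 and 3 in E4, 2 and 2 in E3, and 4 and 4 in Het. In KO the C/EBP factors Cebpg at 2.43 ± 0.18 and Cebpb at 1.61 ± 0.30 were higher and the stress-induced regulator Nupr1 was lower at -1.27 ± 0.16. Cebpg was also higher in E4, E3 and Het, by 1.31, 0.90 and 1.91. Of 13 initiation genes, 2 were higher and 5 lower in KO, 3 and 6 in E4, 2 and 5 in E3, and 2 and 7 in Het, with Eif2b5, a subunit of the eIF2B exchange factor, higher by 1.49 in KO, 1.24 in E4 and 1.24 in Het, and also called higher in E3. Of 8 transporters, 1 was higher and 5 lower in KO, 1 and 3 in E4, 2 and 3 in E3, and 1 and 5 in Het, with Slc7a11 lower by -1.68 in KO, -1.20 in E4 and -1.49 in E3.

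**Figure D5:**
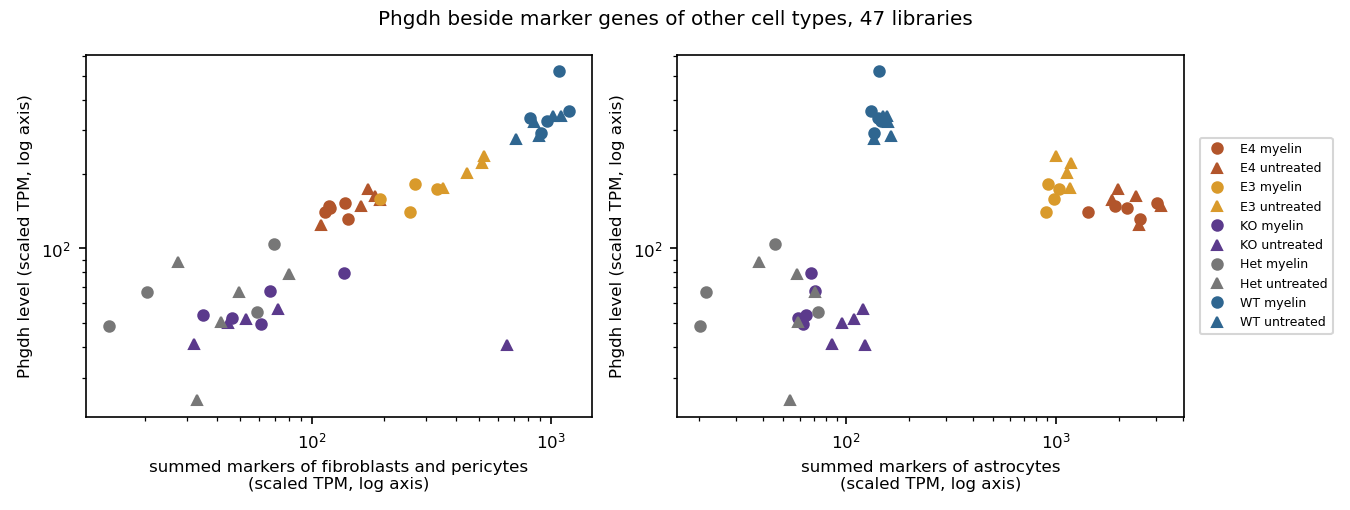
Phgdh (vertical axis, scaled TPM, log) beside the summed markers of fibroblasts and pericytes (left) and of astrocytes (right; horizontal axes, scaled TPM, log) in 47 libraries. Colours are genotypes, circles libraries with myelin and triangles untreated ones; the purple triangle far to the right on the left panel is the untreated KO library with a marker sum of 656 and 40.5 scaled TPM of Phgdh.

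The genes whose pattern was most like the mean standardized level of the 10 members, over the 38 libraries other than Het, were Pgam1 with Pearson r = 0.929, Tceal9 with 0.910, Acta2 with 0.907, Cycs with 0.902, Kirrel with 0.899 and Eno1 with 0.899. Pgam1 and Eno1 are enzymes of glycolysis, Cycs is cytochrome c, and Acta2 is a smooth muscle actin of pericytes and muscle cells. These are descriptions over libraries that share genotype, culture and scaling, and no p is given.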

How the data were processed

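Per the labels' protocols, a low-input kit was used to prepare 47 libraries in 10 groups from polyadenylated RNA of cultured forebrain microglia. The authors deposited TPM, transcript abundances corrected for length and library total, for 53697 genes. Per the submitters' processing notes, Salmon 0.13.1, limma 3.40.6 and the mm10 build were used, in roles not given in the sources used here. Gm23935, a miRNA in the table's annotation, held 69.4 to 99% of the deposited TPM. These values hold no read depth, so no counting interval is given. The nuclear protein-coding genes without mitochondrial genes were rescaled to 1000000 per library and divided by trimmed-mean factors (trimming the outer 30% of log ratios and 5% of mean levels), giving scaled TPM. A gene was tested if 4 or more libraries reached 5 scaled TPM, which left 10887 (10606 coding and 281 lincRNA). Ddit4 passed through WT and E4 libraries only, with at most 4.77 in E3 and 1.69 in KO and Het. Chac1 was at most 3.23 in KO and 3.85 in untreated E4. Lower levels of these genes in those groups therefore describe genes that the filter kept through other groups.

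A model with a mean per group was fitted to log2(scaled TPM + 1) with limma 3.58.1 (R 4.3.3), unweighted and with a trend, to the 38 libraries other than Het, and to all 47 for the Het comparisons. This scale understates fold changes of low genes. Tests were two-sided with Benjamini-Hochberg adjustment over all tested genes at 0.05. Alternatives were the scaling, the pseudocount, the filter, the libraries fitted, library weights, a replicate block and leaving out each replicate. The model was tested on simulated data for the E4 response only, with independent normal noise. It recovered 93% of 100 genes changed by 1 on the log2 scale and 69% of 100 changed by 0.58. False calls numbered 3 of 10887 genes. The members, the 5 pathway lists and the 7 marker lists were chosen with earlier results of these data known, and so were the tests. Besides the 10 genes, the text names from each pathway list up to 3 called genes of largest fold change per comparison and the 6 genes most correlated with the members' mean. Positions are from GENCODE (mm10), where 98.3% of the identifiers had a match, and promoters from RefSeq (GRCm38.p6).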

Additional observations from a re-analysis of the deposited data

Results flagged for a closer look

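In groups of 4 or 5 libraries, 4 of 100 sets of a gene in a group held a library far from the others, where chance gives about 1 in 20. These were Atf4 at 153 scaled TPM in WT myelin replicate 2, Atf5 at 7.68 scaled TPM in E4 untreated replicate 1, Asns at 64.2 scaled TPM in WT myelin replicate 1 and Psat1 at 78.5 scaled TPM in E3 untreated replicate 1.

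Responses to myelin that differed between genotypes by a test of the difference were those of Asns, Trib3, Chac1 and Psat1. For Asns the response was larger by 0.70 in E4 than in E3, by 0.75 in E4 than in WT and by 0.44 in KO than in WT, on the log2 scale. For Trib3 it was larger by 0.79 and for Chac1 by 0.58 in E4 than in WT. For Psat1 it was larger by 0.45 in E4 than in WT and by 0.39 in KO than in WT. Untreated Asns averaged 37.3 ± 4.06 scaled TPM in E4 and 36.8 ± 2.28 scaled TPM in KO, against 63.8 ± 3.97 in E3 and 71.9 ± 6.41 in WT libraries (SD, n = 5, 5, 4 and 5). E4 and KO, with the larger responses of Asns in these tests, also had the lower untreated levels. The same untreated libraries enter both the level and the response, so the pattern is no separate result. Untreated Het averaged 44.1 ± 26.5 scaled TPM of Asns (SD), and its response of 0.62 was not called.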

How the results depend on the processing

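Over the 10 genes and 16 comparisons, each alternative other than leaving out 1 replicate was set beside the reported fit. On the same side of the threshold were 1193 values, and sign changes among values called in neither fit were not counted. Another 48 passed only with the choices reported, 17 passed only under an alternative, and 2 turned round with a call in at least 1 of the fits. The 2 were Atf4 in untreated Het over WT, at 0.26 without the 4 low Het libraries and 0.21 with library weights, against -0.03. The cause of the changes below was not tested. With all 47 libraries unweighted the members called were 3 in the E4 response, 0 in E3, 0 in KO, 1 in untreated E4 over E3, 0 in E4 over E3 with myelin, and 0 in the E4 minus E3, E4 minus WT and KO minus WT responses. With library weights (an estimate that stopped before its tolerance) they were 2 in the E3 response, 3 in Het, 2 in E4 over E3 with myelin, 5 in untreated E3 over WT, 2 in E4 minus E3 and 1 in KO minus WT. Without the 4 low Het libraries they were 1 in the KO response, 0 in E4 minus E3 and 0 in KO minus WT. With only the groups compared they were 1 in KO, 0 in E4 minus E3 and 1 in KO minus WT. Without the trimmed-mean factor they were 1 in Het, 0 in E4 minus E3 and 1 in KO minus WT, with no filter 0 in KO minus WT, and with a pseudocount of 5 they were 5 in untreated E3 over WT.

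Leaving out 1 replicate gave 4 to 5 members in the E4 response, 1 in E3, 2 in KO, 0 in WT and 0 to 3 in Het. It gave 3 to 6 in untreated E4 over E3, 1 with myelin, 6 to 7 in E4 over WT, 3 to 5 in E3 over WT, 6 in KO over WT, 8 to 10 with myelin and 7 to 8 in Het over WT. In the differences of responses it gave 0 to 1 in E4 minus E3, 3 to 4 in E4 minus WT, 0 to 1 in E3 minus WT and 0 to 2 in KO minus WT.

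Whether replicate numbers pair the samples is not given in the sources used here. Same-numbered libraries with and without myelin correlated in their deviations between -0.555 and 0.455. With so few libraries per group, values of both signs cannot decide whether the numbers mark pairs. With the replicate number as a block, the members called in KO minus WT were 1, and Chac1 in E4 minus WT was lost. The block gave 109 genes in the Het response in place of 13, and 651 in E3 minus WT in place of 382.

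Counts over all genes moved by over 1.5 times as follows. The reported fit called 1568 in the E4 response, 851 in E3, 363 in KO, 722 in WT and 13 in Het. All 47 libraries unweighted called 162, 3, 17 and 252 in the first 4, and with weights 2487, 1903 and 589 in E4, E3 and KO and 2030 in Het. The KO count was 235 without the low Het libraries, and with no filter E3 had 505 and Het 216. Het had 98 without the trimmed-mean factor and 0 with its groups alone (113 at an unadjusted p under 0.05). In place of 2024, 1390, 6130 and 6056 in E4 over E3 untreated and with myelin, untreated E3 over WT and KO over WT with myelin, all 47 libraries gave 621, 466, 3564 and 3754, and weights gave 2893 in E4 over E3 with myelin. Untreated Het over WT had 6805, but 14796 with no filter and 3769 with its groups alone. In place of 609, 382 and 452 in E4, E3 and KO minus WT, all 47 libraries gave 2, 0 (783 at an unadjusted p under 0.05) and 5, weights 950, 984 and 1083, no filter 316, 156 and 133, and the groups alone 262, 115 and 131. E3 minus WT had 181 without the low Het libraries and 215 without the trimmed-mean factor, where KO minus WT had 192. E4 minus E3 had 25 with weights and 0 in place of 1 with all 47 libraries (110 at an unadjusted p under 0.05), with the groups alone (589), without the low Het libraries (466) and without the trimmed-mean factor (481).

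Leaving out 1 replicate moved counts over all genes furthest for E3 minus WT (46 without E3 myelin replicate 3, 919 without WT myelin replicate 5), the E3 response (175 without E3 myelin replicate 3), E4 minus WT (289 without E4 untreated replicate 1, 920 without WT myelin replicate 5), KO minus WT (157 without WT myelin replicate 1, 903 without WT myelin replicate 2), the WT response (366 without WT untreated replicate 4), the E4 response (990 without E4 untreated replicate 1), the KO response (240 without KO myelin replicate 5), the Het response (0 without Het myelin replicate 1, 554 without Het untreated replicate 2) and E4 minus E3 (2 without E3 untreated replicate 1).

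The deposited values keep no depth, so the counting error of low genes such as Chac1, Ddit4 and Atf5 is unknown. A change of the whole RNA content of a cell is not measured by scaled TPM.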
